A study of Mus musculus with 2 samples.

Results

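The gene set described here is a group of 10 neuronal homeobox transcription factors, Lhx1, Lhx5, Lhx9, Lhx2, Barhl1, Barhl2, Uncx, Otp, Pou4f1 and Isl1. They were chosen by gene symbol alone, and all 10 were present among the 32285 genes of the deposited count tables. Homeobox factors bind DNA through a shared protein fold, the homeodomain, and combinations of them mark the subtype that a newborn neuron takes on. In the developing brain, Lhx1 and Lhx5 are known from inhibitory and other interneuron lineages, and Barhl1, Barhl2, Lhx2 and Lhx9 from dorsal excitatory lineages that follow the proneural factor Atoh1. Pou4f1, also called Brn3a, and Isl1 are expressed together in sensory neurons of the cranial and dorsal root ganglia.

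The study profiled cranial neural crest cells (CNCCs) of E11.5 mouse heads by 10x single-cell RNA-seq, to ask what the loss of the transcription factor genes Tfap2a and Tfap2b changes in these cells. The control embryos were wt/flox at both Tfap2a and Tfap2b, and the mutant embryos were flox/flox at both genes. Both groups carried the Cre driver Wnt1CRE+ and the reporter r26 mTmG/mTmG, and the control was thus itself heterozygous for the floxed alleles. GFP-positive cells were sorted, and cells of 2 embryos per genotype were pooled into 1 library. The Wnt1 promoter drives Cre in the dorsal neural tube and midbrain as well as in the crest, so the sort holds brain neurons beside crest-derived ganglion neurons.

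With 1 library per group there was no replicate error, and no p-value was computed. Intervals in brackets are at the 95% level and reflect counting error alone, without the spread between embryos. Those of levels and of mutant over control ratios treat UMIs as separate draws and also leave out the spread between cells. After filtering, 5625 control and 5587 mutant cells remained, with 82313680 and 77251738 UMIs (unique molecular identifiers, each marking 1 captured transcript) and medians of 13478 and 12234 UMIs per cell. Xist was detected in 98.8% of cells in the control library and 0.107% in the mutant one, and Y-linked genes in 0.0356% and 82.0%, so sex and genotype cannot be told apart in any comparison below. The libraries shared 5 cell barcodes among the kept cells. Tfap2a and Tfap2b transcripts persisted in mutant neuron-like cells, at 38.0 against 45.8 and 190 against 239 CPM (counts per 1000000 UMIs) in the control, which checks neither label, since a 3′ tag does not separate the recombined from the intact allele.

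Clustering without the 10 genes gave 961 control and 1489 mutant neuron-like cells. Within them, 3 of 11 clusters were named from marker lists. Cluster 5 met the dopaminergic list but held the tyrosine hydroxylase gene Th in 3.66% and 7.25% of its cells and no UMI of the dopamine transporter gene Slc6a3, so it is called by its number. Clusters 3, 8 and 9 were led by progenitor or mesenchyme genes or were shallow, and are not described one by one. They remain in every count over all neuron-like cells, which is also given without them where levels are pooled or members counted. In cluster 8, Scrublet called 61.9% (control) and 83.7% (mutant) of the cells doublets, barcodes that hold more than 1 cell. In cluster 9, with 36 and 46 cells, the 7 blood markers summed to 262164 CPM in the control and 18.4 in the mutant library. The sensory-like cluster held 26 control and 38 mutant cells, with Isl2, Prph and Avil among its 10 leading genes. The inhibitory-like cluster held 48 and 146 cells, with Tal1 and Gata3 among the leading genes, and the GABA-synthesis gene Gad2 was detected in 77.1% and 79.5% of them. The excitatory-like cluster held 57 and 107 cells, with Atoh1 among the leading genes. Its name rests on a narrow margin, since the glutamate transporter gene Slc17a6 was found in 36.8% and 35.5% of its cells, against unnamed clusters 2 (44.8% and 49.0%) and 5 (41.5% and 50.7%). A second group of sensory-like cells, 92 control and 11 mutant, was found within the glia-like class. Its leading genes included Tlx2, Prrxl1 and Sst, with the sensory proneural factor Neurog1 in 92.4% and 72.7% of its cells and the glial factor Sox10 in 10.9% and 36.4%. Most control cells that were sensory-like thus lay in this second group and most mutant ones in the first, so the groups are given separately. The second group was found by re-clustering after the data were examined.

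To show what the members share that their choice by symbol did not use, the homeobox, the 180-base coding stretch for the homeodomain, was read for each gene. Below are codons 42 to 57 of its 60 codons, 48 bases, which encode the helix that contacts DNA. The 3 closest pairs and the pair found together in sensory neurons are shown. Capitals mark bases that differ from the most common base among the 10 genes.
Lhx1: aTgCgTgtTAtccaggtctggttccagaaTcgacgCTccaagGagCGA
Lhx5: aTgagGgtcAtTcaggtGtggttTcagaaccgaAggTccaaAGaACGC
Lhx9: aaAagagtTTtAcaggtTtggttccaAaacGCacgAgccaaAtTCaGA
Lhx2: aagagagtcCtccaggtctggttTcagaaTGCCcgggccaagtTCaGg
Barhl1: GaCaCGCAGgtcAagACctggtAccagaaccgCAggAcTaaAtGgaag
Barhl2: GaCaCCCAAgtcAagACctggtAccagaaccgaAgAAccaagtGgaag
Pou4f1: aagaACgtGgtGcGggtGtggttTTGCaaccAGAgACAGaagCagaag
Isl1: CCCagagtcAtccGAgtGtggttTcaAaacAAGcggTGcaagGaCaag

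In GRCm38 with GENCODE M21, these coding stretches lay at chr11:84520417-84521705 on the minus strand, chr5:120435614-120436340 (plus), chr1:138831592-138832716 (minus), chr2:38360089-38368874 (plus), chr2:28909910-28911376 (minus), chr5:106453657-106455484 (minus), chr14:104465756-104465803 (minus) and chr13:116303100-116303147 (minus). All are coding exon sequence. The stretch is split by an intron in each of them except Pou4f1 and Isl1, so the other spans include the intron. Over all 180 bases, Barhl1 and Barhl2 were identical at 144 (80.0%), Lhx1 and Lhx5 at 144 (80.0%), and Lhx9 and Lhx2 at 143 (79.4%), against a median of 48.9% over the 45 pairs and a lowest value of 38.3%. The 2 genes of each of these 3 pairs were also found together in the same neurons, as given below. Uncx and Otp came next with 68.3%. The AP-2 motif GCCNNNGGC, searched on both strands, was present in 3 of the 11 RefSeq promoters (250 bases before to 50 after the start, GRCm38.p6) that could be matched to 9 members. These were promoters of Barhl1, Lhx2 and Uncx, and the motif was present in 16.6% of all 32851 promoters. The Pou4f1 and Isl1 windows held no match.

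Combinations of the factors were examined next, by counting how many of the 10 were detected in a cell. Since detection rises with depth, each cell was first thinned at random to 5000 UMIs, which left out 56 control and 81 mutant neuron-like cells below that depth. At least 1 member was detected in 78.2% (75.4 to 80.9) of neuron-like cells in the control and 82.4% (80.3 to 84.3) in the mutant library, and 2 or more in 64.2% (61.0 to 67.3) and 65.9% (63.4 to 68.4). Without clusters 3, 8 and 9, at least 1 member was detected in 88.7% and 91.4%. The cells spread over 141 combinations in the control and 171 in the mutant library, with at most 7 members in a cell. The most common combination of members in both libraries was Lhx1 with Lhx5 and Uncx, in 52 of 905 control (5.75%) and 104 of 1408 mutant cells (7.39%).

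Outside the neurons the factors were rare. In mesenchyme-like cells, whose median depth of 14570 and 14473.5 UMIs exceeded the 9762 and 9791 of neuron-like cells, no member was detected in 96.1% of cells in the control and 95.4% in the mutant library. There the single genes were detected in 0.0539% to 1.64% of cells, which serves as the background for the shares below. Neuron-like cluster 3, led by progenitor genes such as Hes5, held no member in 87.1% of control and 80.0% of mutant cells, against 85.8% and 88.1% in the brain progenitor-like class. The share of cells with a member did not differ beyond counting error between the 2 in the control, while in the mutant library it was higher in cluster 3 (33 of 165 cells, interval 14.2% to 26.9%) than in the progenitor-like class (11.9%, 9.98 to 14.0).

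**Figure D1:**
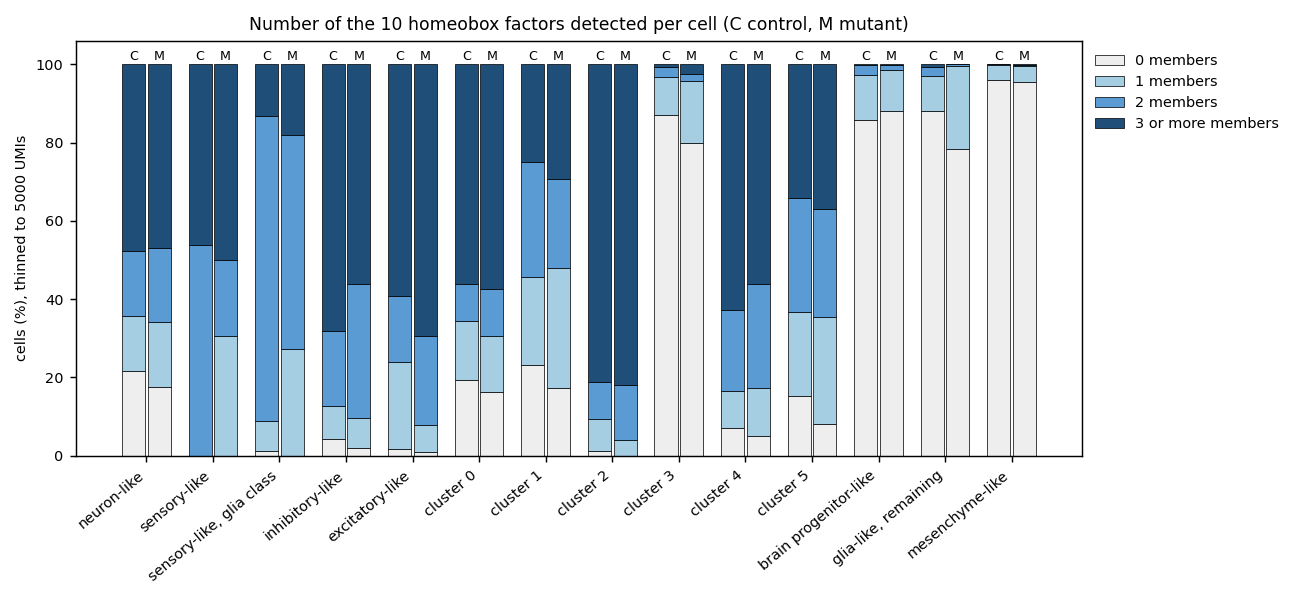
Share of cells (%, y axis) with 0, 1, 2 or 3 and more of the 10 factors detected after thinning to 5000 UMIs, for the control (C) and mutant (M) library of each class or neuron cluster (x axis). Cells with 3 or more members make up 47.7% of control and 47.0% of mutant neuron-like cells, and cells with none make up 96.1% and 95.4% of mesenchyme-like cells.

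Pairs of members were examined in the same thinned cells, as the ratio of cells with both genes to the number given by the product of their shares. A ratio above 1 means that the genes were found together more often than separate draws would give. Of 45 pairs, 44 could be evaluated, with 22 above 1 and 20 below 1 in both libraries. Cells of 1 library are not replicates, so the ratios describe these libraries.

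The 3 pairs with the most similar homeoboxes shared cells, while Uncx and Otp, next in likeness, had lower ratios of 1.55 and 1.66. Lhx9 cells held Lhx2 in 244 of 303 control and 375 of 461 mutant cases, with ratios of 2.57 and 2.59. Lhx1 and Lhx5 had ratios of 2.81 and 2.48, and Barhl1 and Barhl2 ratios of 2.70 and 2.76. In both libraries these 3 pairs thus lay at about the same ratio. Across the groups, Barhl2 joined Lhx9 (2.50 and 2.48) and Lhx2 (2.63 and 2.52), and Otp, a factor of neuroendocrine and hindbrain lineages, joined Lhx1 (2.94 and 2.65) and Lhx5 (2.78 and 2.67). Of the 48 control and 75 mutant cells with Otp, 79.2% and 86.7% also held Lhx1. The homeoboxes of Lhx1 and Otp were identical at only 53.3% of bases, though their ratio was the highest in the control.

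Members of the inhibitory and the excitatory group were rarely found together. The ratio was 0.268 and 0.272 for Lhx5 with Lhx2, 0.299 and 0.348 for Lhx5 with Lhx9, and 0.211 and 0.243 for Lhx5 with Barhl1. Uncx, a paired-type homeobox factor, stood outside both sets. It was detected in 47.1% of control and 48.2% of mutant neuron-like cells, and its ratio lay above 1 in both libraries with every other member except Isl1 (0.477 and 0.234). Pou4f1 and Isl1 were found together well above the product of their shares in the control library and close to it in the mutant library. They shared 23 of 905 control cells, for a ratio of 2.15, and 12 of 1408 mutant cells, for a ratio of 1.04. Without clusters 3, 8 and 9 the ratios were 1.93 and 1.05.

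**Figure D2:**
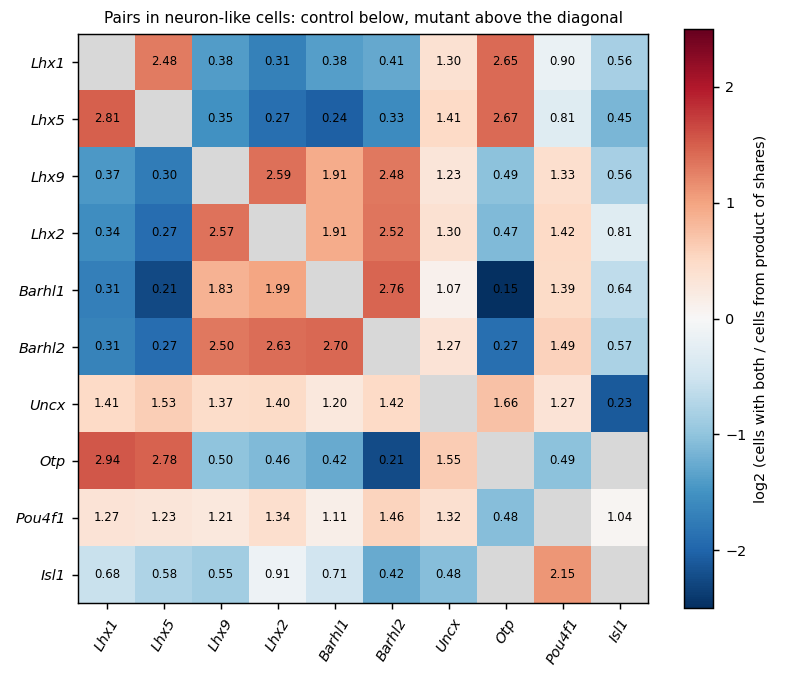
Ratio of neuron-like cells with both factors of a pair to the number from the product of their shares, printed in each square and coloured on a log2 scale, with the control library below and the mutant library above the diagonal (both axes list the 10 genes, and grey squares have no ratio). Lhx9 and Lhx2 have 2.57 and 2.59, Lhx5 and Lhx2 0.268 and 0.272, and Pou4f1 and Isl1 2.15 and 1.04.

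Levels were then compared between the neuron classes. For each class and library, UMIs were summed over cells and given as CPM, and the mutant over control ratio was taken of these levels. A gene was counted as past the fold if it had at least 30 UMIs over both libraries of the class and its level differed by 1.5-fold or more. Over all neuron-like cells pooled, all 10 members had 30 UMIs and none was past the fold, where 3.65% of the 13111 genes tested were higher and 2.88% lower in the mutant library. The median log2 ratio of the members was -0.02, and that of all genes 0.02. The control sum also holds blood transcripts, with the 7 blood markers at 3515 CPM against 1.01 in the mutant library, of which 37970 of 38043 control UMIs lay in cluster 9. Without clusters 3, 8 and 9 the blood markers stood at 7.30 and 0.888 CPM, none of the 10 members was past the fold, where 3.67% of genes were higher and 2.67% lower, and the median of the members was -0.07.

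The order of the levels across the named groups and clusters 0, 1, 2, 4 and 5 was similar in the 2 libraries. Lhx1 was highest in cluster 4 (1062 and 924 CPM) and the inhibitory-like cluster, which did not differ beyond counting error in the control and stood in the reverse order in the mutant library. Cluster 1 followed with 223 and 293. Lhx5 was highest in the inhibitory-like cluster, then in clusters 4 and 5, the last with 159 and 166 CPM. For Lhx9 the order was the excitatory-like cluster, cluster 2 (715 and 748) and cluster 0 (413 and 459), with intervals that did not overlap.

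Lhx2 in these 3 clusters could not be ordered in the control, at 775, 819 and 737 CPM with overlapping intervals, while in the mutant library cluster 2 was highest. Barhl1 in cluster 2 (368 and 284) and the excitatory-like cluster did not differ beyond counting error, and Barhl2 was highest in cluster 2 (236 and 260). Isl1 outside the sensory-like groups was highest in cluster 1 (161 and 111) and then in cluster 0 (51.3 and 60.7).

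The inhibitory-like cluster was marked by Lhx1 and Lhx5. Lhx1 (ENSMUSG00000018698), a LIM homeobox factor, stood at 982 CPM (899 to 1072) in the control and 1102 (1048 to 1158) in the mutant library, with a log2 ratio of 0.17 (0.02 to 0.31). Lhx5 (ENSMUSG00000029595), its close relative, stood at 543 (482 to 611) and 530 CPM (493 to 569), with a log2 ratio of -0.04 (-0.24 to 0.17). Both levels were close in the 2 libraries, and each gene was far lower in the sensory-like and excitatory-like clusters, where Lhx1 did not exceed 19.5 CPM and Lhx5 did not exceed 21.4 CPM. Gm27199, which overlaps Lhx5 on the opposite strand, could share its reads, as the sources used here do not say whether counting used strand. Uncx was at 337 and 298 CPM, with a log2 ratio of -0.18 (-0.43 to 0.09). Lhx1, Lhx5 and Uncx together, with no other member, formed the leading combination, in 26 of 47 control (55.3%) and 64 of 144 mutant cells (44.4%). Lhx1 with Lhx5 alone followed, with 12.8% (4.83 to 25.7) and 29.2% (21.9 to 37.3).

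Of the 4 members with 30 UMIs in inhibitory-like cells, 1 was past the fold, where 8.16% of genes were higher and 6.19% lower. This was Lhx9, with 26 UMIs in the control (50.3 CPM) and 12 in the mutant library (8.47 CPM), a log2 ratio of -2.57 (-3.69 to -1.53). The control value rests on a single cell, which held 17 of the 26 UMIs, and 5 control and 7 mutant cells held any. With classes taken from transmitter and sensory genes per cell in place of clusters, its direction turned to 0.97. Otp had 0 control and 18 mutant UMIs, 17 of them in 1 cell.

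The excitatory-like cluster was marked by Lhx9, Lhx2 and the Bar-class genes. Lhx9 (ENSMUSG00000019230) stood at 1241 CPM (1139 to 1349) in the control and 1339 (1265 to 1416) in the mutant library, with a log2 ratio of 0.11 (-0.04 to 0.26). Lhx2 (ENSMUSG00000000247) stood at 775 (695 to 861) and 632 CPM (582 to 686), with a ratio of -0.29 (-0.49 to -0.10), whose interval excludes 0 while the difference stays under the fold. Gm27197 and Gm13584 overlap Lhx2 on the opposite strand. Lhx9 was thus level between the libraries and Lhx2 somewhat lower in the mutant. Barhl1 (ENSMUSG00000026805), a target of Atoh1 in hindbrain lineages, was at 320 and 287 CPM, and Barhl2 (ENSMUSG00000034384) at 162 and 131 CPM. Their log2 ratios were -0.16 (-0.46 to 0.15) and -0.31 (-0.74 to 0.13). With classes from genes per cell the ratios turned to -0.19 for Lhx9, 0.30 for Barhl1 and 0.35 for Barhl2. None of the 6 members with 30 UMIs was past the fold, where 10.1% of genes were higher and 5.36% lower. The median log2 ratio was -0.21 for the members and 0.04 for all genes.

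Cells of the excitatory-like cluster held more members than those of the other clusters with a name. The means were 3.02 and 3.21 per cell, against 2.57 and 2.54 in the inhibitory-like and 2.73 and 2.47 in the sensory-like cluster. At least 2 members were detected in 75.9% (62.4 to 86.5) of cells in the control and 92.1% (85.0 to 96.5) in the mutant library. Lhx9 with Lhx2 led the combinations in both libraries, in 6 of 54 and 13 of 101 cells. Pou4f1 was detected in 22.2% and 16.8% of these cells and no Isl1 UMI in any of them after thinning. At 54 and 101 cells, this allows shares of cells with an Isl1 UMI of up to 5.56% and 2.97% by a floor of 3 counts, and of up to 6.60% and 3.59% by the Clopper-Pearson interval. It sets no limit on cells that express the gene below detection.

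**Figure D3:**
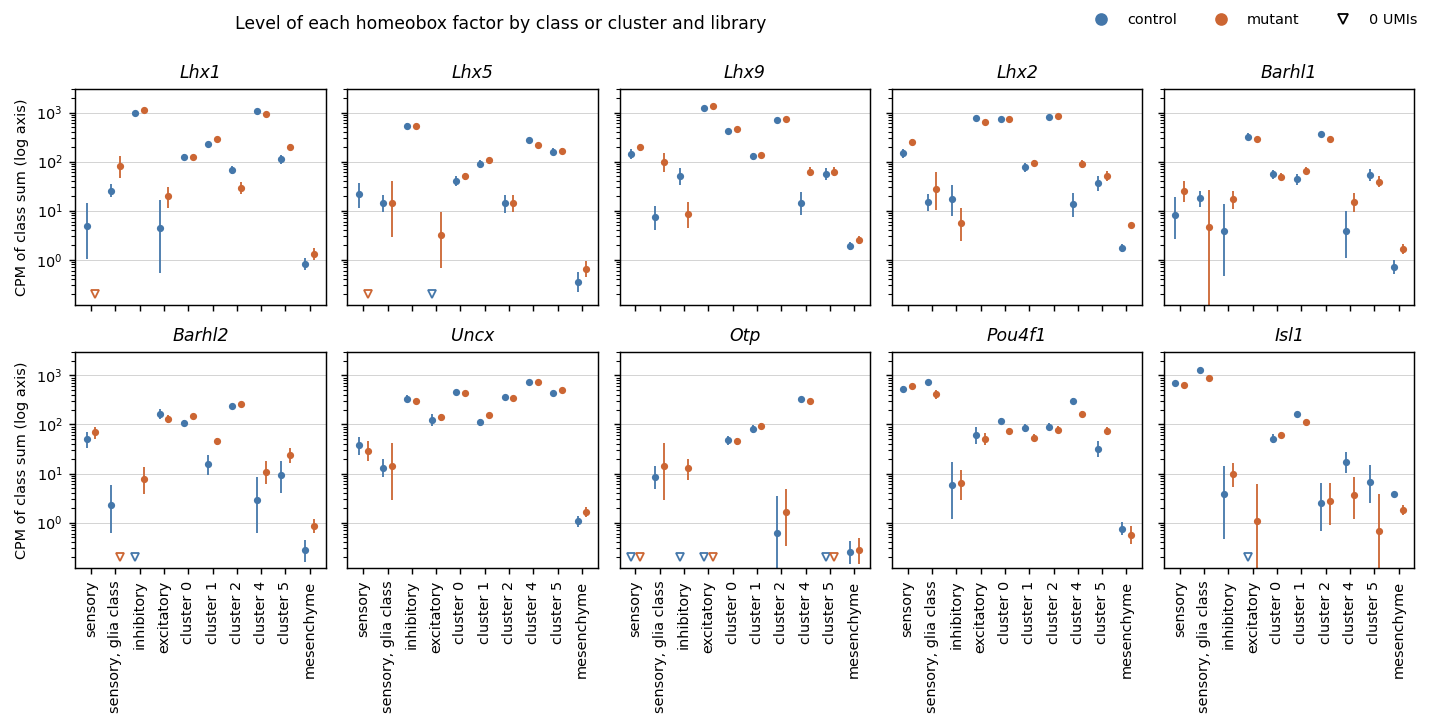
Level of each factor in CPM of the class sum (log y axis) in the named classes, the 5 unnamed neuron clusters described and the mesenchyme-like class (x axis), with the control library in blue and the mutant in orange. Bars are exact Poisson intervals and open triangles mark 0 UMIs. Lhx1 is high in the inhibitory-like cluster and in cluster 4, Lhx9 in the excitatory-like cluster and clusters 0 and 2, and Isl1 in both sensory-like groups.

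The sensory-like cluster was marked by Pou4f1 and Isl1, though not always in the same cells. After thinning, both were detected in 15 of 26 control and 9 of 36 mutant cells. The pooled levels below thus sum over cells with and without the pair. Pou4f1 (ENSMUSG00000048349), a POU homeobox factor, stood at 539 CPM (482 to 600) in the control and 610 (554 to 670) in the mutant library, with a log2 ratio of 0.18 (-0.03 to 0.39). Isl1 (ENSMUSG00000042258), a LIM homeobox factor, stood at 699 (634 to 768) and 640 CPM (582 to 701), with a ratio of -0.13 (-0.32 to 0.07). Neither level differed beyond its counting error in this cluster, but both ratios depended on how cells were grouped. With classes from genes per cell, Isl1 was at -0.99 and Pou4f1 at -0.13. Without integration both were at -0.29, and at the resolution chosen first Isl1 was at -0.64 and Pou4f1 at -0.55. With equal weight per cell in the same cluster Isl1 was at 0.14. In this cluster the combinations of the 2 genes were counted as well. Pou4f1 with Isl1 and no other member was seen in 11 of 26 control (42.3%, 23.4 to 63.1) and 5 of 36 mutant cells (13.9%, 4.67 to 29.5), with intervals that overlap. Isl1 without any other member was found in 0 of 26 control cells, with an upper limit of 13.2% by the same interval (11.54% by the floor of 3 counts), and in 10 of 36 mutant cells (27.8%, 14.2 to 45.2). These limits are on cells with a UMI in thinned data. Every control cell held 2 or more members, against 69.4% (51.9 to 83.7) of mutant cells.

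A second set of cells in this cluster held Lhx9 and Lhx2 with Pou4f1. Lhx9 with Lhx2, Barhl2 and Pou4f1 was found in 4 cells of each library, and Lhx9 with Lhx2 and Pou4f1 in 5 mutant cells. Among cells with Lhx9, 7 of 8 control and 14 of 16 mutant cells also held Pou4f1, but 2 and 2 held Isl1, for ratios of 0.342 and 0.214. Isl1 and Lhx9 thus marked largely separate cells of the cluster in both libraries. Of the 6 members with 30 UMIs, Lhx2 was past the fold, where 9.21% of genes were higher and 6.56% lower. It stood at 150 CPM (121 to 184) in the control and 248 (213 to 288) in the mutant library, or 0.73 as a log2 ratio (0.35 to 1.11). It was under the fold with equal weight per cell (0.57), without integration (0.35) and with classes from genes per cell (0.17). Markers of glia summed to 37.9 and 46.3 CPM and those of mesenchyme to 42.8 and 60.3 CPM in this cluster, and their part in these levels was not tested. Lhx9 went the same way as Lhx2 with 143 and 198 CPM and a ratio of 0.46 (0.07 to 0.87), which was -0.03 without integration. Lhx5 had 13 control UMIs in 2 cells and 0 mutant UMIs, which is 5.09-fold lower when the mutant library is set at a floor of 3 counts. This value leaves out the counting error of the control, and the gene is under the minimum of 30 UMIs.

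In the sensory-like cells of the glia class, both genes were lower in the mutant library. Pou4f1 stood at 750 CPM (710 to 792) in 92 control cells and 413 (331 to 508) in 11 mutant cells, with a log2 ratio of -0.86 (-1.19 to -0.55). It was detected in 95.6% (89.1 to 98.8) of cells in the control and 45.5% (16.7 to 76.6) in the mutant library. Isl1 stood at 1267 CPM in the control and 891 in the mutant library, with a log2 ratio of -0.51 (-0.73 to -0.29). It was detected in 94.5% and 90.9%. Pou4f1 with Isl1 and no other member was seen in 71 of 91 control (78.0%) and 4 of 11 mutant cells (36.4%), and Isl1 alone in 3 of each. The intervals for Isl1 alone, 0.685% to 9.33% and 6.02% to 61.0%, overlap. In both sensory-like groups the mutant library thus held a smaller share of cells with both genes and a larger share with Isl1 alone, and whether these shares differ between embryos could not be tested.

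Of the 6 members with 30 UMIs in these cells, Lhx1, Lhx9 and Lhx2 were past the fold upward and Barhl1 and Pou4f1 downward, where 15.7% of genes were higher and 15.7% lower. Outside Pou4f1 these rest on few cells. The 17 mutant UMIs of Lhx1 lay in 2 cells, and 16 of the 21 of Lhx9 in 1 cell. Scrublet called 36.4% of the 11 mutant and 3.26% of the 92 control cells doublets. The summed level of the 9 glia markers was 783 CPM in the mutant and 432 in the control cells, and its part in these results was not tested. With both sensory-like groups summed, a choice made after the data were examined, Isl1 was at 1121 and 697 CPM (log2 ratio -0.68, -0.81 to -0.56) and Pou4f1 at 696 and 565 (-0.30, -0.45 to -0.16). Lhx9 and Lhx2 were then higher in the mutant library by 2.04 and 1.99 on the log2 scale. The glia class, where both genes were rare, gave 92 of 118 cells in the control and 11 of 49 in the mutant library.

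**Figure D4:**
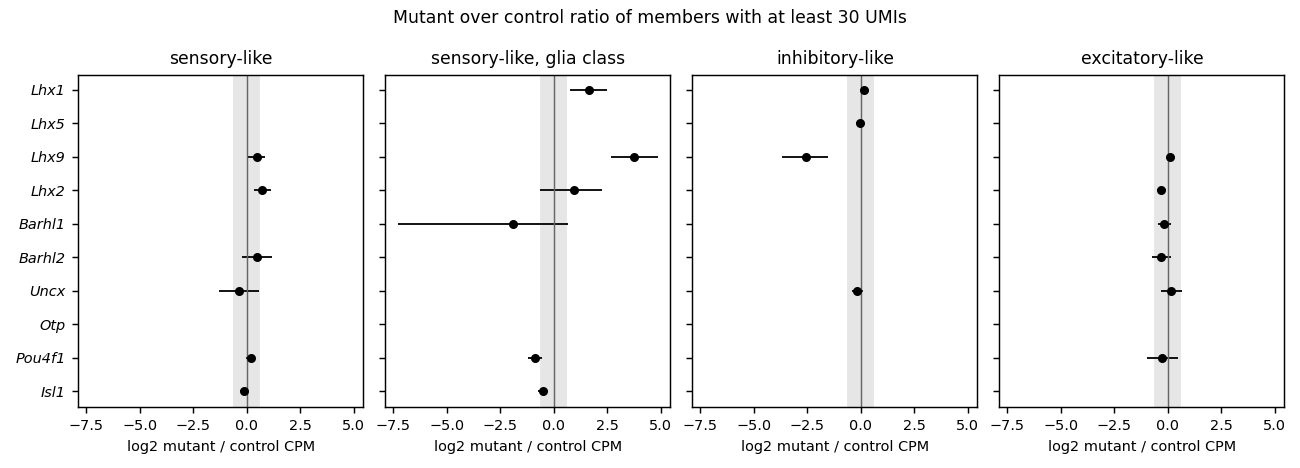
Log2 ratio of mutant over control CPM (x axis) for members (y axis) with at least 30 UMIs over both libraries in the 4 named groups, with exact conditional intervals. The grey band spans changes under 1.5-fold. In the sensory-like cluster Lhx2 lies to the right of the band at 0.73, and in the sensory-like cells of the glia class Pou4f1 lies to the left at -0.86.

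To count the Pou4f1 and Isl1 cells without regard to clusters, all kept cells were examined. This count was chosen after its values were seen. After thinning, both genes were detected in 111 of 5504 control cells (2.02%, 1.66 to 2.42) and 17 of 5414 mutant cells (0.314%, 0.183 to 0.502). Without thinning, the counts were 135 of 5625 (interval 2.02% to 2.83%) and 37 of 5587 (0.662%). Most of the control cells were those of the glia class, with 83 of 91 (91.2%, 83.4 to 96.1) against 5 of 11 (45.5%, 16.7 to 76.6) in the mutant library. In the sensory-like cluster the numbers were 15 of 26 (57.7%, 36.9 to 76.6) and 9 of 36 (25.0%, 12.1 to 42.2). The remaining glia-like cells held 4 of 167 and 0 of 189, and the mesenchyme-like cells 1 of 3709 and 0 of 2762. No inhibitory-like or excitatory-like cell held both.

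**Figure D5:**
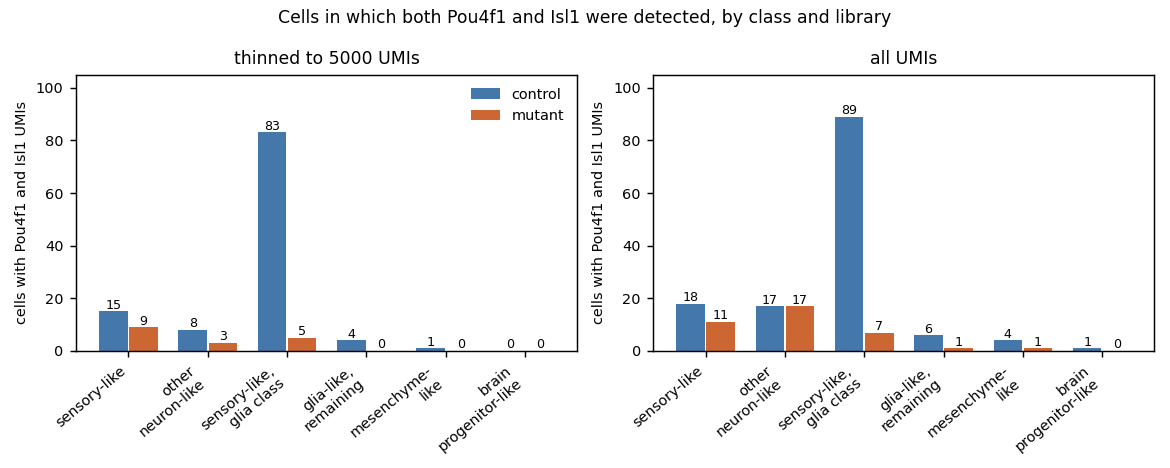
Number of cells (y axis) with UMIs of both Pou4f1 and Isl1 in each class (x axis), thinned to 5000 UMIs per cell on the left and with all UMIs on the right, control in blue and mutant in orange. The sensory-like cells of the glia class hold 83 control and 5 mutant cells after thinning, and 89 and 7 before.

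Within the 5 unnamed clusters, Pou4f1 was lower in the mutant library in 3. Cluster 4, with Pax2, Pax8 and Lmx1b among its leading genes, had Pou4f1 at 304 CPM (272 to 340) in the control and 166 (146 to 189) in the mutant library, or -0.87 as a log2 ratio (-1.12 to -0.62). The gene was detected in 52.6% (42.2 to 62.8) and 35.3% (27.3 to 43.8) of its cells. Clusters 0 and 1 had log2 ratios of -0.67 (-0.95 to -0.39) and -0.66 (-1.02 to -0.30). Cluster 5 went the other way, from 32.0 to 72.9 CPM (1.19, 0.58 to 1.84), and cluster 2 lay at -0.22 (-0.56 to 0.12). Over all neuron-like cells Pou4f1 was at 113 and 85.0 CPM, a log2 ratio of -0.41 (-0.52 to -0.30), -0.39 when the cluster shares were held at those of the control library and -0.52 without clusters 3, 8 and 9.

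Cluster 4 also had the highest level of Otp. Its cells carried Lhx1 (1062 and 924 CPM), Lhx5 (269 and 215), Uncx (727 and 739) and Otp (332 and 298). Otp was at 93.8 CPM or less in each of the other clusters. Otp and Pou4f1 rarely shared a cell, with both in 2 of 97 control and 1 of 139 mutant cells and ratios of 0.181 and 0.0860, while Otp with Lhx1 had 1.42 and 1.54. Lhx1, Lhx5 and Uncx with Pou4f1 was the leading combination in the control (15 of 97, 15.5%) but stood at 11 of 139 (7.91%) in the mutant library. With Otp in place of Pou4f1 it went from 9 of 97 (9.28%) to 27 of 139 (19.4%). The 95% intervals of these shares overlap, at 8.92 to 24.2 against 4.02 to 13.7 and at 4.33 to 16.9 against 13.2 to 27.0.

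Of the 7 members with 30 UMIs in cluster 4, Lhx9 and Lhx2 were past the fold upward and Pou4f1 downward, where 6.36% of genes were higher and 4.5% lower. Lhx9 rests on 5 control and 7 mutant cells, with 26 of its 86 mutant UMIs in 1 cell, and Lhx2 on 2 and 15 cells, with 41 of its 125 in 1. In cluster 0, Pou4f1 was the only one of 10 members past the fold, where 5.66% of genes were higher and 3.45% lower. Barhl2 was at 109 and 148 CPM there, a log2 ratio of 0.43 (0.19 to 0.69). In cluster 1, Barhl1 and Barhl2 were past the fold upward and Pou4f1 downward, where 6.41% of genes were higher and 4.54% lower. Barhl2 went from 15.4 to 45.3 CPM (1.55, 0.88 to 2.29) and was detected in 3.57% (0.982 to 8.89) of cells in the control and 12.5% (8.33 to 17.8) in the mutant library. Isl1 in cluster 1 was at 161 and 111 CPM, a ratio of -0.54 (-0.79 to -0.28), but in 10.7% and 10.1% of cells.

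In cluster 2, with Hoxa5, Evx1 and Hoxa3 among its leading genes, Lhx1 was the only one of 8 members past the fold, where 4.61% of genes were higher and 3.68% lower. Its level was 68.1 and 29.6 CPM, a log2 ratio of -1.20 (-1.70 to -0.72), from 13 and 10 cells. Lhx9 (715 and 748 CPM) and Lhx2 (819 and 860 CPM) were level between the libraries, and Barhl1 stood at 368 and 284 CPM, a ratio of -0.37 (-0.55 to -0.20). Cells of this cluster held the most members, with means of 3.89 and 3.84. Lhx9, Lhx2, Barhl1, Barhl2 and Uncx together led its combinations in 25 and 21 of 149 cells each. In cluster 5, with Sim1, Foxa1 and Foxa2 among its leading genes, Lhx1, Barhl2 and Pou4f1 were past the fold upward among 8 members, where 5.54% of genes were higher and 4.75% lower. Lhx1 went from 112 CPM (90.9 to 137) to 200 (178 to 225), and its share of cells from 29.1% (19.4 to 40.4) to 43.7% (35.2 to 52.5).

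Uncx (ENSMUSG00000029546) and Otp (ENSMUSG00000021685) had no value past the fold in any neuron cluster where they had 30 UMIs. Uncx was at 293 CPM in both libraries over all neuron-like cells, with a log2 ratio of 0.00 (-0.06 to 0.07). In the inhibitory-like and excitatory-like clusters and clusters 0, 2, 4 and 5 its ratio lay between -0.18 and 0.20. It was 0.45 (0.18 to 0.73) in cluster 1 and, from 44 UMIs, -0.36 (-1.29 to 0.55) in the sensory-like cluster. Otp was at 57.6 and 51.9 CPM, a ratio of -0.15 (-0.30 to 0.00), and had no UMI in the sensory-like cluster, the excitatory-like cluster or cluster 5 of either library.

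In mesenchyme-like cells Isl1 was at 3.75 CPM in the control (134 of 3760 cells) and 1.82 in the mutant library (47 of 2818 cells), a log2 ratio of -1.05 (-1.43 to -0.67). Lhx2 went the other way, from 1.73 CPM in 74 cells to 5.00 CPM in 122 cells (1.53, 1.18 to 1.89). After thinning, Isl1 was detected in 1.64% (1.26 to 2.11) and 0.398% (0.199 to 0.711) of these cells and Lhx2 in 0.620% (0.393 to 0.929) and 1.52% (1.10 to 2.05). These are the low shares that served as the background for neurons, so no expression in mesenchyme is read from them. The 1.64% of Isl1 in the control is the top of that range, and its interval does not overlap that of the mutant library. Whether some of these cells express Isl1 was not tested. Of the 9 members with 30 UMIs in these cells, Lhx1, Lhx5, Lhx2, Barhl1, Barhl2 and Uncx were past the fold upward and Isl1 downward, where 5.62% of genes were higher and 2.39% lower. Scrublet called 1.25% of control and 2.48% of mutant mesenchyme-like cells doublets, and the neuronal tubulin gene Tubb3 was detected in 20.6% and 28.0% of them. The part of these differences in the values of the members was not tested.

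Other transcription factors and cofactors of these neurons were followed by gene lists. Of 10 LIM cofactors and LIM-only proteins, which bridge or block LIM homeobox complexes, 9 had 30 UMIs in the sensory-like cluster. There Lmo4 (log2 ratio 1.02, 0.45 to 1.63) and Ssbp2 (0.70, 0.14 to 1.27) were past the fold upward and Lmo2 (-0.64, -1.27 to -0.02) downward. None of 8 was past it in inhibitory-like cells, and Ssbp4 alone (0.69, 0.10 to 1.32) in excitatory-like cells. Of 53 other neuronal homeobox genes, 25 had 30 UMIs in the sensory-like cluster, with 5 higher and 7 lower. Isl2, the paralog of Isl1, went from 254 to 72.9 CPM (-1.80, -2.28 to -1.34), and Hmx1 from 30 UMIs to 0. Pou3f1 went from 119 to 337 CPM. Of these homeobox genes, 1 of 20 was higher and 3 lower in inhibitory-like cells, 1 of 17 was higher in excitatory-like cells, and 8 of 15 were higher and 5 lower in the sensory-like cells of the glia class. There 2 of 6 LIM cofactors were higher.

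Of 24 genes of sensory neurons, 15 had 30 UMIs in the sensory-like cluster, where 1 was higher, 10 were lower and the median log2 ratio was -0.62, against 0.32 for the 6 members with 30 UMIs there. Calca, the gene of the neuropeptide CGRP, was higher (1.66), and Shox2, a homeobox factor, was at 0.46, under the fold. The neuropeptide gene Sst went from 287 to 7 UMIs (-5.59, -6.92 to -4.53) and Prph, a peripheral neurofilament gene, from 195 to 48 (-2.25, -2.74 to -1.79). In the sensory-like cells of the glia class, 6 of 10 were lower and none higher, with a median of -1.65. These genes overlap with the markers that named both groups, so their levels are a description of those cells and not a separate result. The background shares are those given for these groups above. Fate genes such as Neurod1 and Ebf3 stayed under the fold in the sensory-like cluster (0 of 5 past it). Of such genes 1 of 10 was past the fold in inhibitory-like cells, 1 of 8 in excitatory-like cells and 1 of 10 in the glia class. Of the sensory genes, 1 of 4 was lower in inhibitory-like cells, and 2 of 5 were higher and 2 lower in excitatory-like cells.

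The genes most like the members were taken from the Pearson correlation of log-normalized levels across neuron-like cells, averaged over the 2 libraries, among 10156 genes. The points are cells of 1 library that differ in depth, so the values are descriptions. Lhx1 was most like Lhx1os, its neighbouring antisense transcript (0.832), and Nrxn3 (0.658), and Lhx5 was also most like Lhx1os (0.662). Barhl2 was most like Gm28050 (0.564). Barhl1 was most like Atoh1 (0.732), Otp like the hindbrain factor Pax2 (0.608) and Uncx like Nhlh2 (0.552). Isl1 was most like Cntn1 (0.413). For Pou4f1 the first 2 genes were the targeted ones, Tfap2b (0.393) and Tfap2a (0.332). Their correlations were 0.470 and 0.427 in the control and 0.317 and 0.238 in the mutant library. Between members, Pou4f1 and Isl1 had 0.221 in the control and 0.000466 in the mutant library.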

How the data were processed

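The authors deposited raw UMI count matrices of 1 control and 1 mutant library, made with Cell Ranger 6.0.0 on mm10 from 10x 3′ libraries. The submitters' processing notes also name bcl2fastq and Seurat 4.3.0. No normalised values were used. There were 6148 control and 6063 mutant barcodes. Barcodes with 200 to 7500 genes and at most 10% mitochondrial UMIs were kept. The libraries were integrated on anchors in Seurat 5.3.0 (R 4.3.3) with 2000 variable genes and 30 dimensions, from which the 10 members, Tfap2a, Tfap2b, sex-linked genes and haemoglobin genes were left out. Classes were clustered at resolution 0.1 and neuron clusters at 0.2 with 20 dimensions. The resolution chosen first, 0.05, merged neurons with brain progenitors, so 0.1 was used. The rule for naming clusters and the re-clustering of glia-like cells were settled after the clusters were seen. Doublets were called with Scrublet in scanpy 1.11.5 (1.65% of control and 3.06% of mutant cells) and kept. They were removed in an alternative.

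UMIs were summed per class and library with Python 3.11.15, NumPy 2.4.6, pandas 2.3.3 and SciPy 1.17.1. Levels carry exact Poisson intervals, shares Clopper-Pearson intervals and ratios exact conditional binomial intervals, all for counting error only, since molecules of 1 pool are not replicates. Thinning used a fixed seed and left out 121 control and 173 mutant cells. A count of 0 was set against a floor of 3. Pair ratios needed an expected count of 5. TMM scaling (edgeR 4.0.16) was an alternative, and no count model was fitted. Gene spans came from GENCODE M21, which held 32158 of the 32285 identifiers. All 10 members were named. From each related list the 2 highest and 2 lowest ratios per class could be named. The likeness list took the 2 most correlated other genes detected in at least 5% of cells. Scripts were tested on simulated data. The members, gene lists and tests were chosen with earlier results of these data known. Some of the genes these rules name are not reported here.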

Additional observations from a re-analysis of the deposited data

Results flagged for a closer look

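The same mutant over control contrast went opposite ways in different neuron classes for 3 members. The difference between classes was not tested, since each class has 1 library per group. Pou4f1 was higher in the mutant library in cluster 5, by 1.19 on the log2 scale (28 UMIs in 17 control cells and 106 in 35 mutant cells). It was lower in cluster 0 (-0.67, 33 and 57 cells), cluster 1 (-0.66, 34 and 37 cells), cluster 4 (-0.87, 56 and 60 cells) and the sensory-like cells of the glia class (-0.86, 90 and 7 cells). Tfap2b, the gene most correlated with Pou4f1, had -0.01 in cluster 4 and -1.33 in cluster 1.

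Lhx1 was higher in cluster 5 (0.84, 31 and 71 cells) and in the sensory-like cells of the glia class (1.63, 4 and 2 cells). It was lower in cluster 2 (-1.20), where 29 of the 111 control UMIs and 22 of the 54 mutant UMIs lay in 1 cell each. The share of cluster 2 cells with Lhx1 was 5.37% in both libraries after thinning.

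Lhx9 was higher in cluster 4 (2.09, 5 and 7 cells) and the sensory-like cells of the glia class (3.73, 3 and 2 cells) and lower in inhibitory-like cells (-2.57, 5 and 7 cells). Single cells held 26 of the 86 mutant UMIs in cluster 4, 16 of the 21 mutant UMIs in the glia class and 17 of the 26 control UMIs in inhibitory-like cells.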

How the results depend on the processing

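Counts of members past 1.5-fold depended on the grouping of cells and the UMI minimum. In sensory-like cells the count of 1 became 0 with equal weight per cell, 2 after thinning, 3 without integration, 2 with classes from genes per cell and 4 without a UMI minimum. It became 5 at the resolution chosen first and 5 with the sensory-like cells of the glia class. The median ratio of 0.32 became -0.14 with classes from genes per cell and -0.13 at the resolution chosen first. In inhibitory-like cells the count of 1 became 0 after thinning, 2 without integration, 4 with classes from genes per cell, 0 with at least 100 UMIs and 6 without a minimum. The ratio of Lhx9 turned from -2.57 to 0.97 with classes from genes per cell. In excitatory-like cells the count of 0 became 1 after thinning, 3 with classes from genes per cell, 3 without a minimum and 2 at the resolution chosen first. The cause of these changes was not tested.

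The share of neuron-like cells with 1 or more members, 78.2% in the control and 82.4% in the mutant library, was 81.6% and 84.6% without thinning, 68.4% and 72.8% at 2 UMIs or more, and 88.7% and 91.4% without clusters 3, 8 and 9. The share with 2 or more was 68.7% and 70.3%, 48.3% and 51.0%, and 74.4% and 75.2% in the same order. Cells with both Pou4f1 and Isl1 made up 2.02% of control and 0.314% of mutant cells after thinning, and 2.4% and 0.662% without it. At 2 UMIs or more after thinning the control share was 1.56%. The mutant share at that setting is not given here, so this value is not compared between the libraries. Of the log2 ratios of single members under the other alternatives, 140 stayed within the interval of the main value and 26 did not. Some of the 140 could not move. At a higher resolution of the neuron clusters, the sensory-like, inhibitory-like and excitatory-like clusters kept their 64, 194 and 164 cells. The sensory-like and inhibitory-like clusters also held no called doublets to remove. The pair ratios have no interval. Under their alternatives 250 stayed on the same side of 1 as the main value and 6 did not.

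The resolution chosen first, the added glia class cells, the removal of clusters 3, 8 and 9, the fixed cluster shares and the alternatives for cells with both Pou4f1 and Isl1 were chosen after seeing the data. No paired analysis was possible because each group had 1 library, so there was also no replicate to leave out. Depth limits the members with few UMIs, as given beside them, and sex, genotype and library cannot be told apart.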

Other observations

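Outside the neurons, the remaining 168 control and 190 mutant glia-like cells held Pou4f1 at 23.6 and 2.94 CPM, a log2 ratio of -3.01 (-4.19 to -2.01), from 78 UMIs in 14 cells and 9 UMIs in 7 cells. Isl1 there was at 32.7 and 38.5 CPM, a log2 ratio of 0.24 (-0.15 to 0.63). It was detected in 7.19% (3.77 to 12.2) of cells in the control and 14.8% (10.1 to 20.7) in the mutant library after thinning, with overlapping intervals.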
